A study of Homo sapiens with 6 samples.

Results

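Caco-2 cells that carried FAM46A-shRNA#2 were compared with Caco-2 cells that carried a scramble hairpin, across 14884 genes. The members were all genes with 1 symbol on the arrays with those titles, which were 4 of the 6 arrays of the study. They came from 16098 of 48144 probe sets. Caco-2 is an established line from a human colon carcinoma and can take on features of enterocytes in culture. In every group the cells had been infected with a lentivirus while subconfluent and were sampled 17 days later. The 3 groups expressed scramble shRNA, FAM46A-shRNA#2, or another hairpin against the same gene, FAM46A-shRNA#4, and the titles give each group 2 biological replicates, with 1 single-channel Affymetrix array apiece. The sources used here do not say whether an infected population or a clone was sampled, or whether both replicates came from 1 infection. The p-values therefore cover the spread between these samples only, which may be technical. FAM46A itself and its paralogs were not analysed here. How far the hairpin lowered FAM46A is thus unknown, and samples were grouped by their labels.

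FAM46A, also named TENT5A, belongs to a family of noncanonical poly(A) polymerases, enzymes that add adenosines to the ends of RNAs. Cells answer stress through several transcription programmes. HSF1 drives chaperone genes when proteins misfold in the cytosol. ATF4 drives amino acid synthesis, amino acid import and tRNA charging when the kinases of the integrated stress response are active, one of which, PERK (EIF2AK3), sits in the endoplasmic reticulum (ER) beside the other sensors of the unfolded protein response. NRF2 (NFE2L2) drives antioxidant and detoxifying enzymes. In the gut, stressed epithelial cells also display ligands for receptors of natural killer cells, and absorptive cells are recognised by brush border enzymes and by apolipoproteins that package dietary fat.

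Promoter stretches are shown first for stress genes that the rule for this report names and whose RefSeq promoter held the motif of their list. Their lists are described in the results below. Other genes of the lists held a motif and are not shown. The rule picks genes by their calls, so the calls of the shown genes are no result about the motif. All sequences are 5′ to 3′ on the gene's own strand, from the RefSeq table of GRCh38.p14, positions count the first transcribed base as 1, and capitals mark the motif or its reverse complement. The ATF4-related motif was the C/EBP-ATF element, searched as TGATGNAA on both strands. It was in 3.62% of the 35116 promoter windows of 300 bases in that table. Among the cytosolic tRNA synthetase genes, 7 of the 14 with a promoter held it, and among the ATF4 targets 4 of 17. Of these 11 genes, 7 rose with shRNA#2. With or without the motif, 13 of 17 measured synthetases and 10 of 21 ATF4 targets rose, against 12.1% of all genes. The 7 thus follow their lists, and a link between motif and rise was not tested. The share of all promoters counts windows and the shares of the lists count genes, some of which have several windows. ASNS lies at chr7:97872409-97872508 (minus strand, positions -100 to -1), GARS1 at chr7:30594778-30594877 (plus, -100 to -1) and IARS1 at chr9:92293698-92293797 (minus, -100 to -1). For TARS1 the stretch is chr5:33440956-33440985 (plus, -9 to 21), for MARS1 chr12:57488053-57488082 (plus, -15 to 15), for NARS1 chr18:57621804-57621833 (minus, 4 to 33) and for ATF3 chr1:212565205-212565234 (plus, -202 to -173).
ASNS: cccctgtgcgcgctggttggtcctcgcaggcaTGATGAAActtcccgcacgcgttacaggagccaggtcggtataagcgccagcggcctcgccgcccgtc
GARS1: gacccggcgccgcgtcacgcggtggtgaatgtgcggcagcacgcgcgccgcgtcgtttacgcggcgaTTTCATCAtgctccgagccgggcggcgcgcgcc
IARS1: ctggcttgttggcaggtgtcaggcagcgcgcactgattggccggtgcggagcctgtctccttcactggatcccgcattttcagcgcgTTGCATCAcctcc
TARS1: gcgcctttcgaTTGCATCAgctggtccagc
MARS1: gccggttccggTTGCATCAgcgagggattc
NARS1: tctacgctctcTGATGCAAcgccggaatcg
ATF3: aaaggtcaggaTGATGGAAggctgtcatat
ASNS, GARS1, IARS1, TARS1 and MARS1 rose with shRNA#2, while NARS1 and ATF3, which carry the same letters, did not pass the test.

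The other motifs were found in fewer genes. The heat shock element, searched on both strands as GAA, TTC and GAA with 2 free bases between neighbours, was in 0.49% of the windows and in 2 of 19 chaperone genes. In CHORDC1, a cochaperone of HSP90, it lay in overlapping copies at chr11:90223050-90223149 (minus strand, -100 to -1). The ER stress element, searched on both strands as CCAAT and CCACG with 9 free bases between them, was in 0.0769% of the windows and in 5 of 18 genes of the unfolded protein response. Of the genes named by the rule for this report, it was in ERO1B, an oxidase of the ER lumen, at chr1:236282178-236282207 (minus, -249 to -220), and in CALR, an ER chaperone, at chr19:12938378-12938407 (plus, -231 to -202). The antioxidant response element, searched as TGACNNNGC on both strands, was in 13.3% of the windows and in 3 of 16 NRF2 genes. One of those was TXNRD1, thioredoxin reductase, at chr12:104286919-104286948 (plus, -113 to -84), a gene for which the table has several windows.
CHORDC1: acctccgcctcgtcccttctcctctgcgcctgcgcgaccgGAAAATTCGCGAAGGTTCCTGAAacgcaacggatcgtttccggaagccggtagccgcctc
ERO1B: ggcccgCGTGGTCCCGCCTCATTGGccgcc
CALR: cccacgCGTGGTCGACCATCATTGGtcggt
TXNRD1: agtggatttctGCTTTGTCAttctgactct
CHORDC1, ERO1B and TXNRD1 rose with shRNA#2, and CALR was not called against scramble.

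Values below are log2 values relative to the gene's median over the 6 arrays, as deposited. They hold no level, so the epithelial identity of the cells could not be read from its markers, and levels of different genes are not compared. Changes are differences of group means with the standard error of the limma fit after ±, n = 2 arrays a group. A gene was called at a Benjamini-Hochberg adjusted p under 0.05 over all 14884 genes. With shRNA#2, 3220 genes were called against scramble, 21.6% of those tested, 1800 higher (12.1%) and 1420 lower (9.54%). At a change of at least 1 the counts were 75 higher (0.504%) and 146 lower (0.981%). The shRNA#2 arrays lay entirely above or below the scramble arrays for 58.6% of genes, called or not, so such a separation alone says little. Against shRNA#4, shRNA#2 was called different for 2272 genes, 15.3%, of which 988 were higher (6.64%) and 1284 lower (8.63%). For shRNA#4 against scramble the count was 3884, 26.1%, with 2331 higher (15.7%) and 1553 lower (10.4%). Both comparisons with scramble use the same scramble arrays, so their values are set side by side and their overlap is not read as a result. The counts rest on each array. Without shRNA#2 replicate 1, 1756 genes were called against scramble, without shRNA#2 replicate 2, 1892, and without scramble replicate 1, 2038. Against shRNA#4 the count was 761 and 1022 without shRNA#2 replicate 1 and 2, and 1300 and 1057 without shRNA#4 replicate 1 and 2.

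KITLG, C5 and TMEM47 were among the 15 largest rises with shRNA#2. KITLG read -2.65 and -2.14 in scramble, 0.14 and 0.21 with shRNA#2 and 0.17 and -0.14 with shRNA#4. KITLG encodes the ligand of the KIT receptor, and its scramble arrays lay far below all 4 hairpin arrays. C5 read -2.0 and -2.26 in scramble, 0.38 and 0.06 with shRNA#2 and 0.17 and -0.06 with shRNA#4. C5 is complement component 5, and it followed the same order. TMEM47 rose by 2.07 ± 0.12 (adjusted p = 0.000452). RASSF9 read -0.82 and -0.99 in scramble, 1.15 and 1.07 with shRNA#2 and 0.13 and -0.13 with shRNA#4. RASSF9, a Ras association protein of recycling endosomes, was highest in both shRNA#2 arrays, with the shRNA#4 arrays between them and scramble. It rose by 2.01 ± 0.10 (adjusted p = 0.000394) and stood 1.11 ± 0.10 (adjusted p = 0.00293) above shRNA#4. NETO2 read -1.09 and -0.64 in scramble, 1.07 and 1.02 with shRNA#2 and 0.02 and -0.02 with shRNA#4. NETO2 is an auxiliary subunit of kainate receptors, and its change of 1.91 ± 0.14 (adjusted p = 0.000734) was again larger than the change of 0.87 with shRNA#4. EFNB2, an ephrin ligand, rose by 1.63 ± 0.10 (adjusted p = 0.000564), GRB14, an adaptor that restrains insulin receptor signalling, by 1.63 ± 0.085 (adjusted p = 0.000405), and the posterior homeobox gene HOXB9 by 1.77 ± 0.12 (adjusted p = 0.000717). All 3 also stood above shRNA#4, EFNB2 by 0.66, GRB14 by 0.84 and HOXB9 by 0.57. P3H2, a prolyl hydroxylase of collagens, rose by 1.72 ± 0.08 (adjusted p = 0.000298) but differed by -0.41 from shRNA#4. The remaining rises among the first 15 were CDCA7L (1.93), SAMD5 (1.69), PDGFRL (1.62), NRCAM (1.55), BMAL2 (1.56) and HSPA4L (2.08), of which the last 2 are described further on. EFNB2 was not called against shRNA#4 without either shRNA#2 array or shRNA#4 replicate 2 (highest adjusted p = 0.0714), nor HOXB9 without either shRNA#2 array or either shRNA#4 array (highest adjusted p = 0.148), nor P3H2 without either shRNA#2 array or shRNA#4 replicate 1 (highest adjusted p = 0.104).

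Among the 15 largest falls with shRNA#2, GSTA1, an alpha class glutathione transferase, changed by -3.76 ± 0.16 (adjusted p = 0.000298) and its relative GSTA2 by -2.10 ± 0.12 (adjusted p = 0.000433). PHGR1 read 1.42 and 1.41 in scramble, -0.77 and -0.60 with shRNA#2 and -0.06 and 0.06 with shRNA#4. PHGR1, a small histidine- and glycine-rich protein of gut epithelium, was high in scramble, intermediate with shRNA#4 and lowest with shRNA#2. Its log2 change was -2.10 ± 0.075 (adjusted p = 0.000298) against scramble and -0.69 ± 0.075 (adjusted p = 0.00441) against shRNA#4. SI read 1.11 and 0.94 in scramble, -0.81 and -1.05 with shRNA#2 and 0.31 and -0.31 with shRNA#4. SI, the brush border sucrase-isomaltase, changed by -1.96 ± 0.20 (adjusted p = 0.00203) and differed by -0.93 ± 0.20 (adjusted p = 0.0294) from shRNA#4. AFP read 1.27 and 1.12 in scramble, -0.54 and -0.99 with shRNA#2 and 0.17 and -0.17 with shRNA#4. AFP, alpha-fetoprotein, had the same order, with a change of -1.96 ± 0.17 (adjusted p = 0.00129). ZG16, a secreted lectin of goblet cells, changed by -2.58 ± 0.12 (adjusted p = 0.000298), and -0.66 against shRNA#4. KLB, the coreceptor through which the gut hormone FGF19 signals, changed by -2.0 ± 0.13 (adjusted p = 0.000645), REEP6 by -1.96 ± 0.093 (adjusted p = 0.000312), SOAT2, a cholesterol acyltransferase, by -1.95 ± 0.16 (adjusted p = 0.00116), and MLN, motilin, by -1.96 ± 0.14 (adjusted p = 0.00074). The remaining falls among the first 15 were APOA4 (-2.98), GATM (-2.26), LCT (-2.21), TM4SF20 (-2.16) and APOC3 (-2.13). In these bulk samples, fewer cells of a type and less RNA per cell cannot be told apart. SI was not called against shRNA#4 without either shRNA#2 array or shRNA#4 replicate 1 (highest adjusted p = 0.137), nor AFP without either scramble array, shRNA#2 replicate 2 or either shRNA#4 array (highest adjusted p = 0.139), nor ZG16 without shRNA#2 replicate 1 or shRNA#4 replicate 2 (highest adjusted p = 0.0872).

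**Figure D1:**
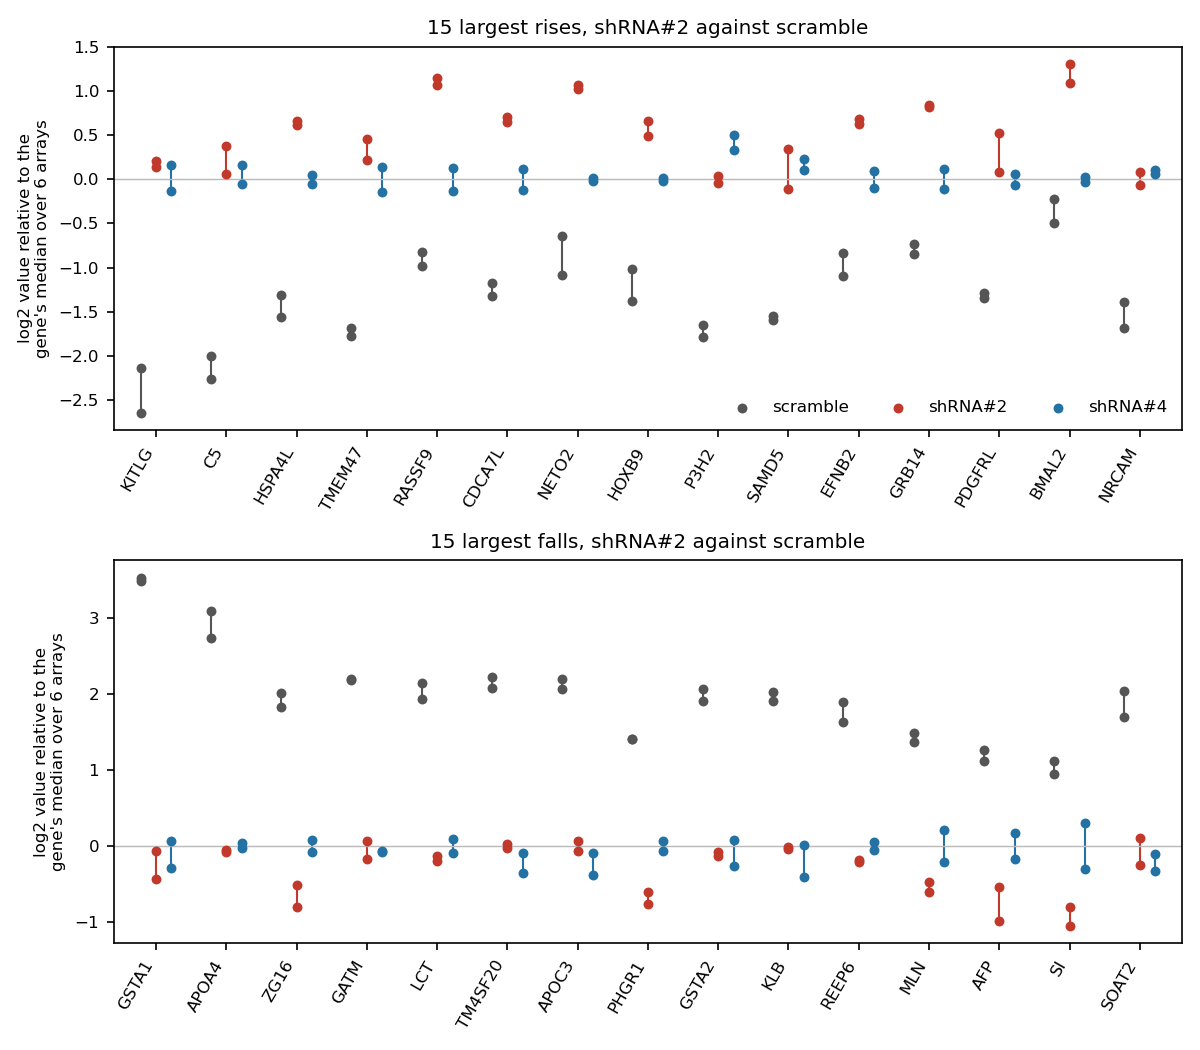
Log2 value relative to the gene's median over the 6 arrays, for the 15 largest rises (upper panel) and the 15 largest falls (lower panel) of shRNA#2 against scramble. Each point is 1 array and a line joins the 2 arrays of a group. For KITLG and GSTA1 the hairpin groups lie together near 0, while RASSF9, NETO2, BMAL2 and GRB14 are higher with shRNA#2 than with shRNA#4, and PHGR1, SI and AFP lower.

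The stress lists together had 314 measured genes. With shRNA#2, 78 of them rose and 34 fell, 35.7% against 21.6% of all genes. The same genes gave 110 higher and 40 lower with shRNA#4, 47.8% against 26.1% of all genes. Between the hairpins 28 stress genes were higher and 48 lower with shRNA#2, 24.2% against 15.3% of all genes (988 higher and 1284 lower). Only 6 of the 314, 1.91%, were called with shRNA#2 against both scramble and shRNA#4 in 1 direction while the shRNA#4 change was not called and was smaller than the shRNA#2 change divided by 3. Among all genes 418, 2.81%, met that rule. The 6 were PRDX4, DUSP4 and IFIH1, which were higher, and MT1F, IL32 and MAVS, which were lower.

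**Figure D2:**
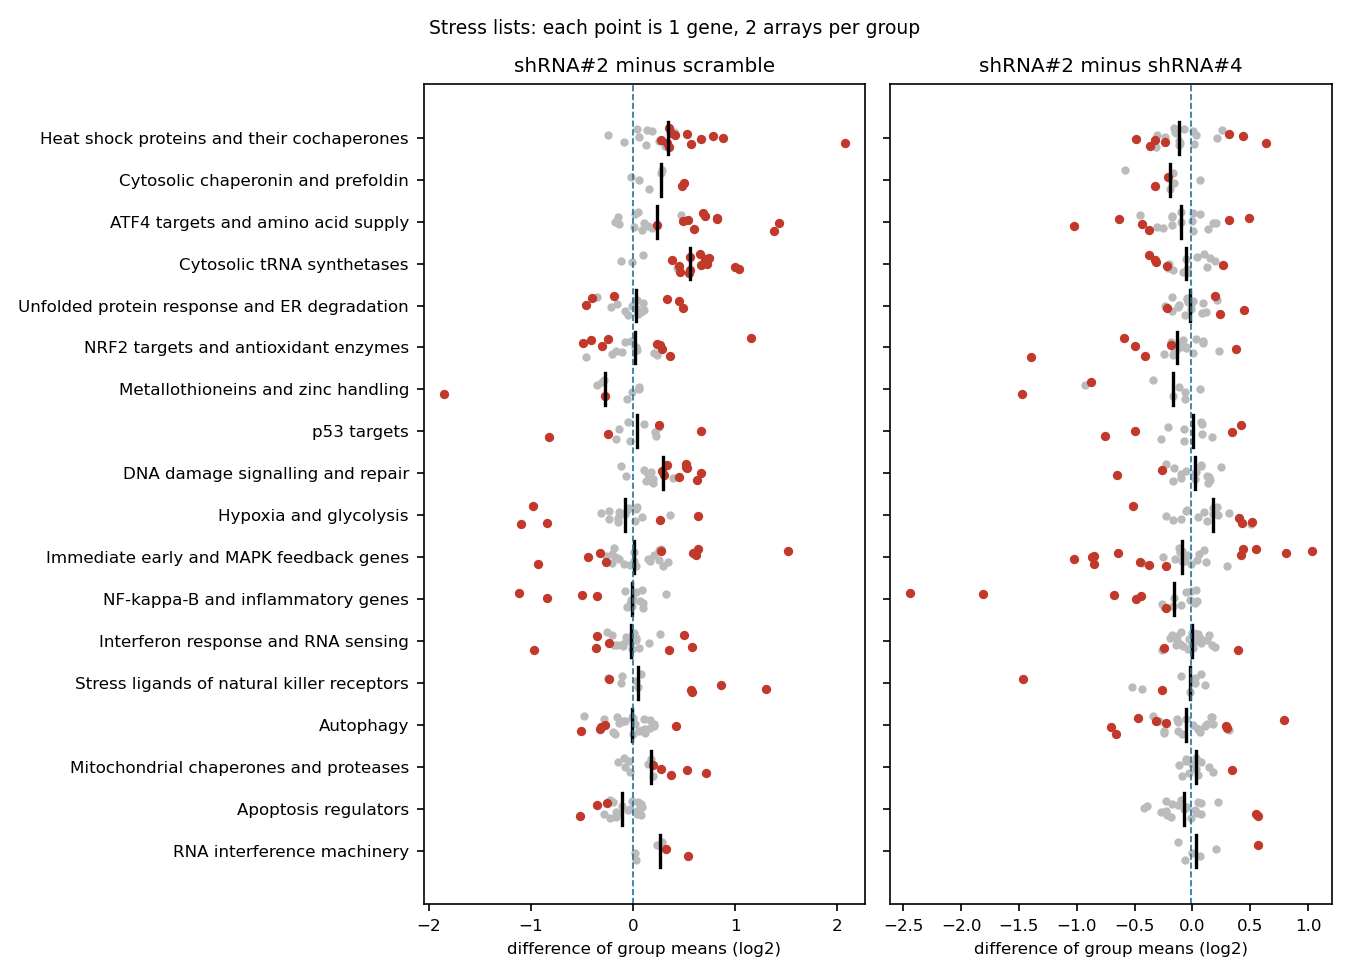
Difference of group means on the log2 scale, shRNA#2 minus scramble (left) and shRNA#2 minus shRNA#4 (right), for every measured gene of 18 stress lists. Points are genes, red where called at an adjusted p under 0.05 and grey otherwise, and black bars are the list medians. The chaperone, ATF4 and tRNA synthetase lists lie right of 0 on the left and around 0 on the right, where SPRY2 stands high among the immediate early genes and OLR1 low among the inflammatory genes.

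Of 22 measured heat shock proteins and cochaperones 12 were higher and 0 lower with shRNA#2, 54.5% against 21.6% of all genes. The median change was 0.34 against 0.00 over all genes. With shRNA#4, 14 were higher and 0 lower, 63.6% against 26.1% of all genes, with a median of 0.41. HSPA4L read -1.57 and -1.31 in scramble, 0.62 and 0.66 with shRNA#2 and -0.05 and 0.05 with shRNA#4. HSPA4L, a nucleotide exchange factor of the HSP110 family, was lowest in scramble and highest in both shRNA#2 arrays. It rose 4.22-fold, 2.08 ± 0.091 (adjusted p = 0.000298) on the log2 scale, and exceeded shRNA#4 by 0.64 ± 0.091 (adjusted p = 0.00837). HSPB1 read -0.69 and -0.62 in scramble, 0.17 and 0.28 with shRNA#2 and -0.17 and 0.19 with shRNA#4. HSPB1, a small heat shock protein, rose by 0.88 ± 0.12 (adjusted p = 0.00453), and its shRNA#4 arrays partly overlapped those of shRNA#2. BAG2 read -0.30 and -0.40 in scramble, 0.50 and 0.37 with shRNA#2 and 0.07 and -0.07 with shRNA#4. BAG2, an inhibitor of the ubiquitin ligase CHIP, rose by 0.78 ± 0.076 (adjusted p = 0.00172) and stood 0.44 ± 0.076 (adjusted p = 0.0153) above shRNA#4. HSPH1 read -0.77 and -0.57 in scramble, -0.06 and 0.06 with shRNA#2 and 0.45 and 0.52 with shRNA#4. In HSPH1, another HSP110 protein, the order of the hairpins was turned. It rose by 0.67 ± 0.083 (adjusted p = 0.00353) with shRNA#2 and differed by -0.48 from shRNA#4, where the change was 1.16. CHORDC1 rose by 0.53 ± 0.071 (adjusted p = 0.00449), with 0.22 and no call for shRNA#4, and HSPA2 by 0.57 ± 0.065 (adjusted p = 0.00282). The inducible HSP70 genes HSPA1A and HSPA1B are nearly identical copies whose signals may not be separable. They gave 0.36 ± 0.097 (adjusted p = 0.0472) and 0.32 ± 0.089 (adjusted p = 0.0512). HSF1 itself changed by 0.35 ± 0.081 (adjusted p = 0.0275). In the cytosolic chaperonin and prefoldin list 2 of 7 rose (28.6%), PFDN4 (0.50) and PFDN2 (0.48), against 5 (71.4%) with shRNA#4. The chaperone count was 7 without shRNA#2 replicate 1 and 7 without replicate 2. Against shRNA#4 it was 7 of 22 (3 higher, 4 lower), and 0, 2, 4 and 2 without shRNA#2 replicate 1, shRNA#2 replicate 2, shRNA#4 replicate 1 and shRNA#4 replicate 2. HSPA4L was not called against shRNA#4 without either shRNA#2 array (highest adjusted p = 0.0513), nor BAG2 without shRNA#2 replicate 1 or shRNA#4 replicate 2 (highest adjusted p = 0.0883), nor HSPH1 without shRNA#2 replicate 1 or either shRNA#4 array (highest adjusted p = 0.0883). CHORDC1 was not called against shRNA#4 without either shRNA#2 array or shRNA#4 replicate 2 (highest adjusted p = 0.157). HSPA1A was not called against scramble without either scramble array, shRNA#2 replicate 2 or either shRNA#4 array (highest adjusted p = 0.194), nor HSF1 without scramble replicate 2 or either shRNA#2 array (highest adjusted p = 0.115).

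Of 21 ATF4 targets 10 were higher and 0 lower with shRNA#2, 47.6% against 21.6% of all genes, with a median of 0.23. With shRNA#4, 13 were higher and 0 lower, 61.9% against 26.1% of all genes, with a median of 0.45. PSAT1 read -1.47 and -1.03 in scramble, 0.18 and 0.17 with shRNA#2 and 0.08 and -0.08 with shRNA#4. PSAT1, of serine synthesis, rose by 1.43 ± 0.14 (adjusted p = 0.00181). ASNS read -1.49 and -1.12 in scramble, 0.02 and 0.14 with shRNA#2 and -0.02 and 0.18 with shRNA#4. ASNS, asparagine synthetase, rose by 1.39 ± 0.13 (adjusted p = 0.00172), its hairpin groups overlapped, and their difference was 0.00 ± 0.13 (adjusted p = 0.991). CTH read -0.34 and -0.33 in scramble, 0.42 and 0.55 with shRNA#2 and -0.10 and 0.10 with shRNA#4. CTH makes cysteine from cystathionine. It rose by 0.82 ± 0.083 (adjusted p = 0.00195) and was 0.49 ± 0.083 (adjusted p = 0.0146) above shRNA#4. VLDLR, a lipoprotein receptor, rose by 0.83 ± 0.09 (adjusted p = 0.00245) but differed by -0.63 from shRNA#4. STC2, a secreted glycoprotein, and EIF4EBP1, a repressor of translation initiation, rose by 0.70 and 0.69. ATF4 itself rose by 0.23 ± 0.054 (adjusted p = 0.028), and by 0.41 with shRNA#4. ATF3 read -0.20 and -0.10 in scramble, 0.01 and -0.01 with shRNA#2 and 0.97 and 1.09 with shRNA#4. ATF3, a transcription factor induced downstream of ATF4, was high in both shRNA#4 arrays. With shRNA#2 its change was 0.15 ± 0.064 (adjusted p = 0.168), with shRNA#4 1.18, and the difference between the hairpins -1.03 ± 0.064 (adjusted p = 0.00154). DDIT3, the proapoptotic factor CHOP, had 0.09 with shRNA#2, not called, and 0.47 with shRNA#4. Without shRNA#2 replicate 2, 6 of the 21 were called. CTH was not called against shRNA#4 without shRNA#2 replicate 2 or shRNA#4 replicate 1 (highest adjusted p = 0.0762), nor VLDLR without shRNA#2 replicate 1 or shRNA#4 replicate 2 (highest adjusted p = 0.0597), nor DDIT3 without shRNA#2 replicate 1 or either shRNA#4 array (highest adjusted p = 0.0801). STC2 and EIF4EBP1 were not called against scramble without either shRNA#2 array (highest adjusted p = 0.109), nor ATF4 without either scramble array or either shRNA#2 array (highest adjusted p = 0.141).

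Charging enzymes of tRNA made up the list with the largest called share of the stress lists. With shRNA#2, 13 of 17 cytosolic tRNA synthetases rose and 0 fell, 76.5% against 21.6% of all genes, with a median of 0.56. With shRNA#4, 16 rose and 1 fell, 100.0% against 26.1% of all genes, with a median of 0.60. GARS1 read -1.02 and -1.01 in scramble, -0.04 and 0.09 with shRNA#2 and 0.04 and 0.11 with shRNA#4. GARS1, the glycine enzyme, rose 2.06-fold, or 1.04 ± 0.062 (adjusted p = 0.000496). IARS1 read -0.96 and -0.77 in scramble, 0.11 and 0.14 with shRNA#2 and -0.06 and 0.06 with shRNA#4. IARS1, the isoleucine enzyme, rose by 1.0 ± 0.08 (adjusted p = 0.00102). For both genes the hairpin arrays lay together above scramble, and the differences between hairpins were -0.05 ± 0.062 (adjusted p = 0.715) and 0.13 ± 0.08 (adjusted p = 0.391). TARS1, the threonine enzyme, rose by 0.75 ± 0.058 (adjusted p = 0.000937) and MARS1, the methionine enzyme, by 0.73 ± 0.12 (adjusted p = 0.00874). NARS1 read -0.12 and 0.03 in scramble, -0.06 and -0.03 with shRNA#2 and 0.28 and 0.25 with shRNA#4. NARS1, the asparagine enzyme with the motif shown above, was higher in shRNA#4 alone, with -0.01 ± 0.064 (adjusted p = 0.956) for shRNA#2 against scramble. Leaving out each array gave 11 to 14 called synthetases. MARS1 was not called against scramble without scramble replicate 1 (highest adjusted p = 0.05). NARS1 was not called against shRNA#4 without either shRNA#2 array or either shRNA#4 array (highest adjusted p = 0.124).

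**Figure D3:**
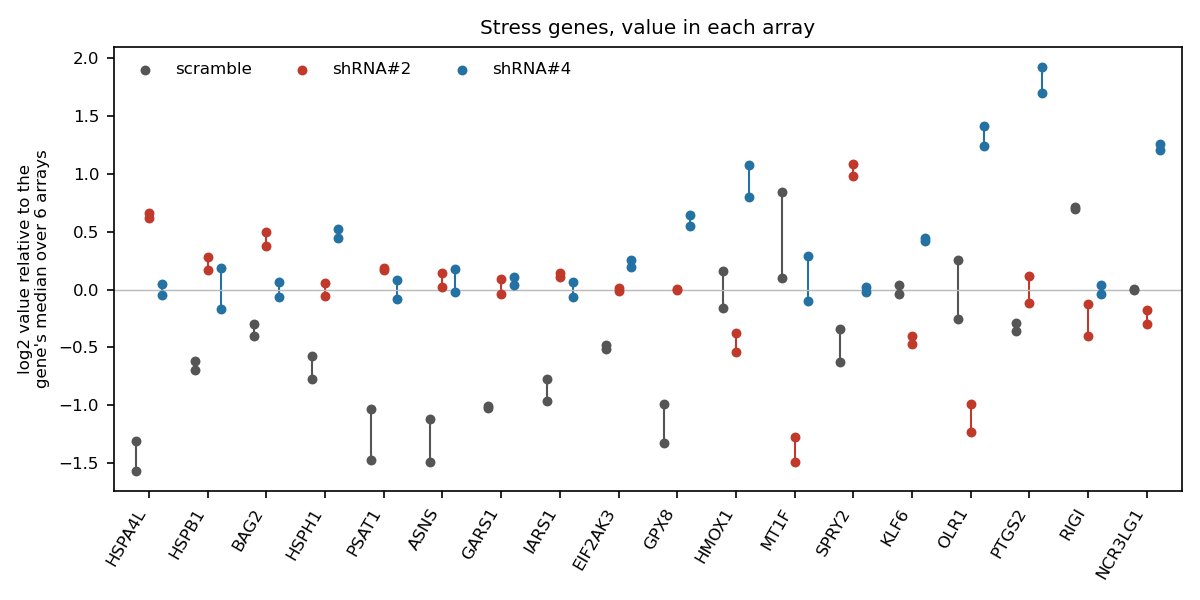
Log2 value relative to the gene's median over the 6 arrays for 18 stress genes, 1 point per array and a line between the 2 arrays of a group. The scramble points of PSAT1, ASNS, GARS1 and IARS1 lie below both hairpin groups. SPRY2 is highest in the shRNA#2 arrays, with the shRNA#4 arrays between them and scramble. MT1F is low in the shRNA#2 arrays alone, while HMOX1, OLR1, PTGS2 and NCR3LG1 are high in the shRNA#4 arrays alone.

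The unfolded protein response was split. Of 20 genes 3 rose and 3 fell with shRNA#2, with a median of 0.03. EIF2AK3 read -0.47 and -0.51 in scramble, -0.01 and 0.01 with shRNA#2 and 0.25 and 0.19 with shRNA#4. EIF2AK3 encodes the sensor kinase PERK and rose by 0.49 ± 0.05 (adjusted p = 0.00193), with 0.71 for shRNA#4. CREB3L2, a membrane-bound transcription factor, rose by 0.46 ± 0.076 (adjusted p = 0.00892) and ERO1B by 0.33 ± 0.061 (adjusted p = 0.0131). SEL1L, the adaptor of ER degradation, changed by -0.46 ± 0.068 (adjusted p = 0.00602), and WFS1, an ER membrane glycoprotein, by -0.40 ± 0.053 (adjusted p = 0.00452). ERN1 read -0.04 and 0.04 in scramble, 0.04 and 0.17 with shRNA#2 and -0.35 and -0.33 with shRNA#4. ERN1 is the sensor IRE1. Its shRNA#4 arrays were lower than the rest, so that it stood 0.44 ± 0.062 (adjusted p = 0.00796) above shRNA#4 without a call against scramble (0.11). CALR differed in the same way, by 0.24 ± 0.048 (adjusted p = 0.0231). CREB3L2 was not called against scramble without shRNA#2 replicate 2 (highest adjusted p = 0.0556), nor ERO1B without scramble replicate 1 or either shRNA#2 array (highest adjusted p = 0.0757). EIF2AK3 was not called against shRNA#4 without either scramble array, either shRNA#2 array or either shRNA#4 array (highest adjusted p = 0.158), nor CALR without either shRNA#2 array or either shRNA#4 array (highest adjusted p = 0.127).

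Antioxidant genes were also called both ways, with 5 of 21 higher and 4 lower with shRNA#2 and a median of 0.03. Their called share was 42.9%, against 21.6% of all genes. GPX8 read -1.33 and -0.98 in scramble, 0.01 and -0.01 with shRNA#2 and 0.55 and 0.64 with shRNA#4. GPX8, a peroxidase of the ER membrane, rose by 1.16 ± 0.11 (adjusted p = 0.0017), and by 1.75 with shRNA#4. TXNRD1 read -0.30 and -0.43 in scramble, -0.03 and 0.03 with shRNA#2 and 0.41 and 0.41 with shRNA#4. TXNRD1 rose by 0.37 ± 0.062 (adjusted p = 0.0097), with the shRNA#4 arrays above those of shRNA#2. HMOX1 read -0.16 and 0.16 in scramble, -0.54 and -0.38 with shRNA#2 and 0.80 and 1.07 with shRNA#4. HMOX1, heme oxygenase, was low in both shRNA#2 arrays and high in both shRNA#4 arrays. It was not called against scramble with shRNA#2 (-0.46 ± 0.14 (adjusted p = 0.0618)), was called with shRNA#4 (0.94), and differed by -1.40 ± 0.14 (adjusted p = 0.00305) between the hairpins. NFE2L2 itself rose by 0.26 ± 0.046 (adjusted p = 0.0109), and CAT, catalase, changed by -0.49 ± 0.07 (adjusted p = 0.00514). NFE2L2 was called lower than with shRNA#4. PRDX4 read 0.02 and -0.07 in scramble, 0.29 and 0.24 with shRNA#2 and -0.02 and -0.21 with shRNA#4. PRDX4, a peroxiredoxin of the ER, was called higher than both scramble, by 0.29 ± 0.075 (adjusted p = 0.0427), and shRNA#4, by 0.37 ± 0.075 (adjusted p = 0.024). The list count was 5 without scramble replicate 2 and 4 without either shRNA#2 array. TXNRD1 was not called against scramble without shRNA#2 replicate 2 (highest adjusted p = 0.0605), nor NFE2L2 without either shRNA#2 array (highest adjusted p = 0.0682), nor PRDX4 without either scramble array or either shRNA#2 array (highest adjusted p = 0.184). TXNRD1 was not called against shRNA#4 without shRNA#2 replicate 1 or shRNA#4 replicate 2 (highest adjusted p = 0.0693), nor GPX8 without either shRNA#2 array or either shRNA#4 array (highest adjusted p = 0.0956), nor NFE2L2 without either scramble array, either shRNA#2 array or either shRNA#4 array (highest adjusted p = 0.204). PRDX4 was not called against shRNA#4 without either shRNA#2 array or shRNA#4 replicate 2 (highest adjusted p = 0.125).

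Metallothioneins, which bind zinc and copper, gave the largest fall of a stress gene with this hairpin. MT1F read 0.10 and 0.84 in scramble, -1.49 and -1.28 with shRNA#2 and -0.10 and 0.29 with shRNA#4. Both shRNA#2 arrays of MT1F lay below all others, while the scramble arrays stood apart from each other by more than those of the other groups. MT1F changed by -1.85 ± 0.25 (adjusted p = 0.00459) against scramble and -1.48 ± 0.25 (adjusted p = 0.0143) against shRNA#4, and -0.38 ± 0.25 (adjusted p = 0.368) separated shRNA#4 from scramble. MT2A read -0.21 and 0.18 in scramble, -0.45 and -0.18 with shRNA#2 and 0.46 and 0.67 with shRNA#4. MT2A was not called against scramble (-0.30) and differed by -0.88 ± 0.15 (adjusted p = 0.016) from shRNA#4. MT1X read -0.46 and 0.39 in scramble, -0.64 and -0.13 with shRNA#2 and 0.13 and 0.97 with shRNA#4. MT1X had the same order with a wide spread within each group, and its difference from shRNA#4 was -0.93 ± 0.38 (adjusted p = 0.172). Of the 9 genes of this list, 2 were lower with shRNA#2, 22.2%, near the 21.6% of all genes. The 2 were MT1F and MT1E (-0.28 ± 0.072 (adjusted p = 0.0409)). Their sequences are closely related, and whether their probe sets separate them was not tested. MT1E was not called against scramble without either scramble array, shRNA#2 replicate 2 or either shRNA#4 array (highest adjusted p = 0.18). MT1F was not called against shRNA#4 without either shRNA#2 array or shRNA#4 replicate 2 (highest adjusted p = 0.0851), nor MT2A without shRNA#2 replicate 1 or shRNA#4 replicate 2 (highest adjusted p = 0.0878).

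Of 18 genes of DNA damage signalling and repair 9 were higher and 0 lower with shRNA#2, 50.0% against 21.6% of all genes. Their median was 0.30. With shRNA#4, 10 were higher and 1 lower, 61.1% against 26.1% of all genes. XRCC2 read -0.56 and -0.63 in scramble, 0.03 and 0.11 with shRNA#2 and 0.13 and -0.03 with shRNA#4. XRCC2, a gene of homologous recombination, rose by 0.67 ± 0.071 (adjusted p = 0.00219), and the checkpoint kinase CHEK1 by 0.62 ± 0.074 (adjusted p = 0.00305). The DNA damage count was 5, 4 and 5 without scramble replicate 1, shRNA#2 replicate 1 and shRNA#2 replicate 2. Of 12 p53 targets 2 rose and 2 fell, 33.3% against 21.6% of all genes, and fewer were called without each of the same arrays. TP53INP1 read 0.91 and 0.73 in scramble, 0.02 and -0.02 with shRNA#2 and -0.12 and -0.21 with shRNA#4. TP53INP1, a p53 target that promotes cell death and autophagy, changed by -0.82 ± 0.073 (adjusted p = 0.00137), and by -0.98 with shRNA#4. PLK2, a polo-like kinase, rose by 0.66 ± 0.088 (adjusted p = 0.00438) and was called lower than with shRNA#4. TIGAR read -0.13 and -0.31 in scramble, -0.01 and 0.01 with shRNA#2 and 0.87 and 0.65 with shRNA#4. TIGAR, a regulator of glycolysis, differed by -0.76 ± 0.094 (adjusted p = 0.00571) from shRNA#4 and was not called against scramble (0.22). Among 19 hypoxia and glycolysis genes 2 rose and 3 fell, 26.3%, near the 21.6% of all genes (shRNA#4, 2 rose and 6 fell). NDRG1 changed by -1.10 ± 0.19 (adjusted p = 0.0097), BNIP3, a mitophagy receptor, by -0.85 ± 0.073 (adjusted p = 0.00123) and INSIG2, which retains sterol sensors in the ER, by -0.98 ± 0.12 (adjusted p = 0.00333), while HK1, a hexokinase, rose by 0.64 ± 0.077 (adjusted p = 0.00323). Compared with shRNA#4, BNIP3 was called higher and INSIG2 lower. Without shRNA#2 replicate 1 the hypoxia count was 3. PLK2 was not called against shRNA#4 without either shRNA#2 array or shRNA#4 replicate 2 (highest adjusted p = 0.0814), nor BNIP3 without shRNA#2 replicate 1 or shRNA#4 replicate 1 (highest adjusted p = 0.0826), nor INSIG2 without either shRNA#2 array or either shRNA#4 array (highest adjusted p = 0.175). NDRG1 was not called against scramble without shRNA#2 replicate 1 (highest adjusted p = 0.0607).

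Several feedback genes of MAP kinase signalling were higher with shRNA#2 than with either other group. SPRY2 read -0.34 and -0.62 in scramble, 0.98 and 1.09 with shRNA#2 and -0.02 and 0.02 with shRNA#4. SPRY2, an inhibitor of receptor tyrosine kinase signalling, was highest in both shRNA#2 arrays, with the shRNA#4 arrays between them and scramble. It rose 2.87-fold, 1.52 ± 0.098 (adjusted p = 0.000603), and exceeded shRNA#4 by 1.03 ± 0.098 (adjusted p = 0.00298). DUSP6 read -0.12 and 0.12 in scramble, 0.39 and 0.79 with shRNA#2 and -0.29 and -0.16 with shRNA#4. DUSP6, a phosphatase of ERK, rose by 0.59 ± 0.15 (adjusted p = 0.0351) and exceeded shRNA#4 by 0.81 ± 0.15 (adjusted p = 0.0168). ETV4 read -0.21 and -0.20 in scramble, 0.46 and 0.41 with shRNA#2 and -0.04 and 0.04 with shRNA#4. ETV4, a transcription factor of the same pathway, rose by 0.64 ± 0.053 (adjusted p = 0.00115) and exceeded shRNA#4 by 0.43 ± 0.053 (adjusted p = 0.00564). Its shRNA#4 arrays also lay above both scramble arrays. DUSP4, a related phosphatase, rose by 0.62 ± 0.089 (adjusted p = 0.00556) and exceeded shRNA#4 by 0.42 ± 0.089 (adjusted p = 0.0289). KLF6 read 0.04 and -0.04 in scramble, -0.47 and -0.40 with shRNA#2 and 0.44 and 0.42 with shRNA#4. KLF6, an immediate early transcription factor, changed by -0.44 ± 0.054 (adjusted p = 0.00343) with shRNA#2 and rose by 0.43 ± 0.054 (adjusted p = 0.00256) with shRNA#4, a difference of -0.87 ± 0.054 (adjusted p = 0.00154). JUN read 0.08 and -0.15 in scramble, -0.17 and -0.08 with shRNA#2 and 0.63 and 0.81 with shRNA#4. JUN was high in both shRNA#4 arrays, and differed by -0.85 ± 0.099 (adjusted p = 0.00508) between the hairpins and by -0.09, not called, from scramble. DUSP1, a phosphatase of p38 and JNK, differed by -0.85 ± 0.11 (adjusted p = 0.00594) from shRNA#4. FOSL2 fell with both hairpins, with changes of -0.93 and -0.91. In the whole list of 29 genes 5 rose and 4 fell against scramble, 31.0% against 21.6% of all genes. Compared with shRNA#4, 5 were higher and 8 lower, 44.8% against 15.3% of all genes. The count against scramble was 5 without shRNA#2 replicate 2, and that against shRNA#4 was 8 without shRNA#4 replicate 2. DUSP6 was not called against scramble without either scramble array, shRNA#2 replicate 2 or either shRNA#4 array (highest adjusted p = 0.156). DUSP6 and DUSP4 were not called against shRNA#4 without shRNA#2 replicate 2 or either shRNA#4 array (highest adjusted p = 0.128).

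No inflammatory gene was called higher with shRNA#2. Of 18 genes 4 fell and 0 rose against scramble, 22.2%, which is near the 21.6% of all genes. Compared with shRNA#4, 6 were lower and 0 higher, 33.3% against 15.3% of all genes. OLR1 read -0.26 and 0.26 in scramble, -1.23 and -0.99 with shRNA#2 and 1.41 and 1.24 with shRNA#4. OLR1, a scavenger receptor for oxidised lipoproteins, was low in both shRNA#2 arrays and high in both shRNA#4 arrays. It changed by -1.11 ± 0.18 (adjusted p = 0.00764) with shRNA#2 and 1.33 ± 0.18 (adjusted p = 0.00328) with shRNA#4, a difference of -2.44 ± 0.18 (adjusted p = 0.00211). PTGS2 read -0.36 and -0.29 in scramble, -0.12 and 0.12 with shRNA#2 and 1.70 and 1.92 with shRNA#4. PTGS2, the inducible cyclooxygenase, was high with shRNA#4 alone and differed by -1.81 ± 0.11 (adjusted p = 0.00154) between the hairpins, and was not called against scramble (0.33). ICAM1 read -0.02 and 0.02 in scramble, -0.52 and -0.48 with shRNA#2 and 0.09 and 0.26 with shRNA#4. ICAM1, an adhesion molecule for leukocytes, changed by -0.50 ± 0.069 (adjusted p = 0.00483) against scramble and -0.68 ± 0.069 (adjusted p = 0.00345) against shRNA#4. IL18, an epithelial cytokine, changed by -0.84 ± 0.09 (adjusted p = 0.00223), and IL32 by -0.35 ± 0.065 (adjusted p = 0.0137). The 6 genes lower than with shRNA#4 numbered 3 without shRNA#2 replicate 1. IL32 was not called against scramble without either scramble array or shRNA#2 replicate 1 (highest adjusted p = 0.0777). IL32 was not called against shRNA#4 without shRNA#2 replicate 1 (highest adjusted p = 0.0604).

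Hairpin RNAs can engage sensors of double-stranded RNA, which induce interferon genes. Of 27 genes of the interferon response and RNA sensing, 3 rose and 4 fell with shRNA#2, with a median of -0.02. The called share was 25.9%, near the 21.6% of all genes. With shRNA#4, 2 rose and 2 fell, 14.8% against 26.1% of all genes. RIGI read 0.71 and 0.69 in scramble, -0.40 and -0.13 with shRNA#2 and 0.04 and -0.04 with shRNA#4. RIGI, a cytosolic RNA sensor, changed by -0.97 ± 0.093 (adjusted p = 0.0017), with the scramble arrays highest. EIF2AK2, the kinase PKR, rose by 0.58 ± 0.069 (adjusted p = 0.00318), and by 0.38 with shRNA#4. IFIH1 read -0.18 and 0.04 in scramble, 0.28 and 0.28 with shRNA#2 and -0.19 and -0.04 with shRNA#4. IFIH1, the sensor MDA5, was called against scramble (0.35 ± 0.087 (adjusted p = 0.036)) and against shRNA#4 (0.39 ± 0.087 (adjusted p = 0.032)). MAVS, the adaptor of both sensors, changed by -0.36 ± 0.06 (adjusted p = 0.0092) and -0.24 ± 0.06 (adjusted p = 0.0457) in the same comparisons. The list count was 3 without scramble replicate 1 and 3 without either shRNA#2 array. Of 6 genes of the RNA interference machinery, XPO5, which exports hairpin precursors, rose by 0.54 ± 0.066 (adjusted p = 0.00345), and TNRC6A by 0.33. These 2 calls made 33.3% of the list, against 21.6% of all genes. That count was 1 when any scramble or shRNA#2 array was left out. IFIH1 was not called against scramble without scramble replicate 1 or either shRNA#2 array (highest adjusted p = 0.142), nor MAVS without scramble replicate 1 or shRNA#2 replicate 1 (highest adjusted p = 0.0558), nor TNRC6A without either scramble array or either shRNA#2 array (highest adjusted p = 0.19). IFIH1 was not called against shRNA#4 without either shRNA#2 array or either shRNA#4 array (highest adjusted p = 0.138), nor MAVS without either scramble array, either shRNA#2 array or either shRNA#4 array (highest adjusted p = 0.21).

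Of 11 stress ligands of natural killer receptors 4 were higher and 1 lower with shRNA#2, 45.5% against 21.6% of all genes. With shRNA#4, 6 were higher and 0 lower, 54.5% against 26.1% of all genes. The medians were 0.052 with shRNA#2 and 0.575 with shRNA#4. ULBP1 read -1.34 and -1.28 in scramble, 0.06 and -0.06 with shRNA#2 and 0.25 and 0.62 with shRNA#4. ULBP1, a ligand of NKG2D, rose 2.48-fold, 1.31 ± 0.12 (adjusted p = 0.00152), with scramble below every hairpin array. ULBP3, MICA and MICB, of the same kind, rose by 0.87 ± 0.12 (adjusted p = 0.00471), 0.58 ± 0.066 (adjusted p = 0.00275) and 0.57 ± 0.053 (adjusted p = 0.00157). MICB was called lower than with shRNA#4. NCR3LG1, the ligand of NKp30 known as B7-H6, changed by -0.24 ± 0.059 (adjusted p = 0.0373) with shRNA#2 and by 1.23 ± 0.059 (adjusted p = 0.000258) with shRNA#4, and differed by -1.47 ± 0.059 (adjusted p = 0.00111). MICB was not called against shRNA#4 without either shRNA#2 array or either shRNA#4 array (highest adjusted p = 0.124). NCR3LG1 was not called against scramble without either scramble array, either shRNA#2 array or either shRNA#4 array (highest adjusted p = 0.171).

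Of 27 autophagy genes 1 rose and 4 fell with shRNA#2, 18.5% against 21.6% of all genes. GABARAPL2, of the ATG8 family, changed by -0.51 ± 0.061 (adjusted p = 0.00331). ATG3 read -0.06 and 0.06 in scramble, -0.34 and -0.28 with shRNA#2 and 0.37 and 0.42 with shRNA#4. ATG3, an enzyme of ATG8 lipidation, changed by -0.31 ± 0.06 (adjusted p = 0.0159) with shRNA#2 and 0.40 ± 0.06 (adjusted p = 0.00533) with shRNA#4. SQSTM1 read -0.05 and 0.05 in scramble, -0.24 and -0.11 with shRNA#2 and 0.48 and 0.49 with shRNA#4. SQSTM1, the cargo receptor p62, differed by -0.66 ± 0.066 (adjusted p = 0.00325) from shRNA#4. Of 21 apoptosis regulators 0 rose and 3 fell, 14.3%. BCL2L11 read 0.45 and 0.59 in scramble, 0.04 and -0.04 with shRNA#2 and -0.60 and -0.53 with shRNA#4. BCL2L11, the proapoptotic protein BIM, changed by -0.52 ± 0.068 (adjusted p = 0.0041) and stood 0.56 ± 0.068 (adjusted p = 0.00542) above shRNA#4, where it was lowest. Of 13 mitochondrial chaperones and proteases 5 rose and 0 fell, 38.5% against 21.6% of all genes. Among them were TRAP1, the mitochondrial HSP90, by 0.71 ± 0.091 (adjusted p = 0.00377) and CLPB, a disaggregase, by 0.53 ± 0.069 (adjusted p = 0.0041). CLPB was also called higher than with shRNA#4. Autophagy gave 2 called genes without scramble replicate 2 or either shRNA#2 array, and apoptosis 5 without either shRNA#4 array. The mitochondrial count was 3, 3 and 2 without scramble replicate 1, shRNA#2 replicate 1 and shRNA#2 replicate 2. All 36 proteasome genes of the list had no symbol among the measured genes and were not analysed here. ATG3 was not called against scramble without scramble replicate 2 or either shRNA#2 array (highest adjusted p = 0.091). CLPB was not called against shRNA#4 without either shRNA#2 array or shRNA#4 replicate 1 (highest adjusted p = 0.117).

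The 418 genes that met the rule above, under which the shRNA#4 change was not called, were 251 higher and 167 lower. BMAL2 read -0.49 and -0.22 in scramble, 1.31 and 1.10 with shRNA#2 and 0.03 and -0.03 with shRNA#4. BMAL2, a partner of CLOCK in the circadian oscillator, was the largest rise, at 1.56 ± 0.11 (adjusted p = 0.000704) against scramble and 1.20 ± 0.11 (adjusted p = 0.00282) against shRNA#4. NID2 read -0.15 and -0.23 in scramble, 0.81 and 1.05 with shRNA#2 and 0.02 and -0.02 with shRNA#4. NID2, a basement membrane protein, rose by 1.12 ± 0.085 (adjusted p = 0.000867). GCFC2 read -0.01 and -0.03 in scramble, 1.10 and 1.04 with shRNA#2 and 0.01 and -0.04 with shRNA#4. GCFC2, a splicing factor, had scramble and shRNA#4 together and shRNA#2 apart, with 1.09 ± 0.049 (adjusted p = 0.000298). FMNL2, a formin that builds actin filaments, rose by 0.97 ± 0.069 (adjusted p = 0.000724), and the Wnt coreceptor LRP5 by 0.76 ± 0.076 (adjusted p = 0.00181). The other rises among the first 15 were between 0.78 and 0.95 for DMXL2, POU2AF3, DKFZP586I1420, SMC1B, PLSCR4, CGNL1 and PER3, and 0.78 for UQCC2, 0.78 for PRR11 and 0.76 for ECT2. Not called does not mean unchanged. With shRNA#4, BMAL2 changed by 0.36 (adjusted p = 0.0595 in the limma fit) and FMNL2 by 0.20, in the same direction. GCFC2 changed by 0.00 and POU2AF3 by -0.21. OCLN read 0.22 and 0.17 in scramble, -1.25 and -1.39 with shRNA#2 and 0.06 and -0.06 with shRNA#4. Among falls, OCLN, the tight junction protein occludin, was low in both shRNA#2 arrays. It changed by -1.52 ± 0.07 (adjusted p = 0.000298) against scramble, -1.32 ± 0.07 (adjusted p = 0.00154) against shRNA#4 and -0.20 ± 0.07 (adjusted p = 0.0964) for shRNA#4 against scramble. SYPL1 read 0.04 and -0.03 in scramble, -1.18 and -1.38 with shRNA#2 and 0.12 and 0.03 with shRNA#4. SYPL1, a vesicle membrane protein, changed by -1.28 ± 0.079 (adjusted p = 0.000536). ZYG11B, a substrate receptor of a cullin ubiquitin ligase, changed by -1.12 ± 0.066 (adjusted p = 0.000495), SERINC1 by -1.0 ± 0.078 (adjusted p = 0.000937), ISOC1 by -0.89 ± 0.048 (adjusted p = 0.000411), the deubiquitinase USP12 by -0.83 ± 0.081 (adjusted p = 0.00177) and the inner nuclear membrane protein LEMD3 by -0.77 ± 0.054 (adjusted p = 0.000724). The remaining falls, ITIH2, ENTPD7, PHAF1, TLCD5, AGFG2, ZBTB37 and ABHD3, ran from -1.05 to -0.77. At the edge of the rule, KLHL5 (-0.31 with shRNA#2 and 0.10 with shRNA#4) and CCNI (0.33 and -0.11) lay just inside, and PKP4 (0.48 and 0.16) and PIERCE2 (0.95 and 0.32) just outside. SMC1B was not called against shRNA#4 without shRNA#2 replicate 1 (highest adjusted p = 0.0532), nor UQCC2 without either shRNA#2 array (highest adjusted p = 0.0666), nor ECT2 without either shRNA#2 array or either shRNA#4 array (highest adjusted p = 0.0679). ITIH2 was not called against shRNA#4 without shRNA#2 replicate 2 or either shRNA#4 array (highest adjusted p = 0.0729).

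**Figure D4:**
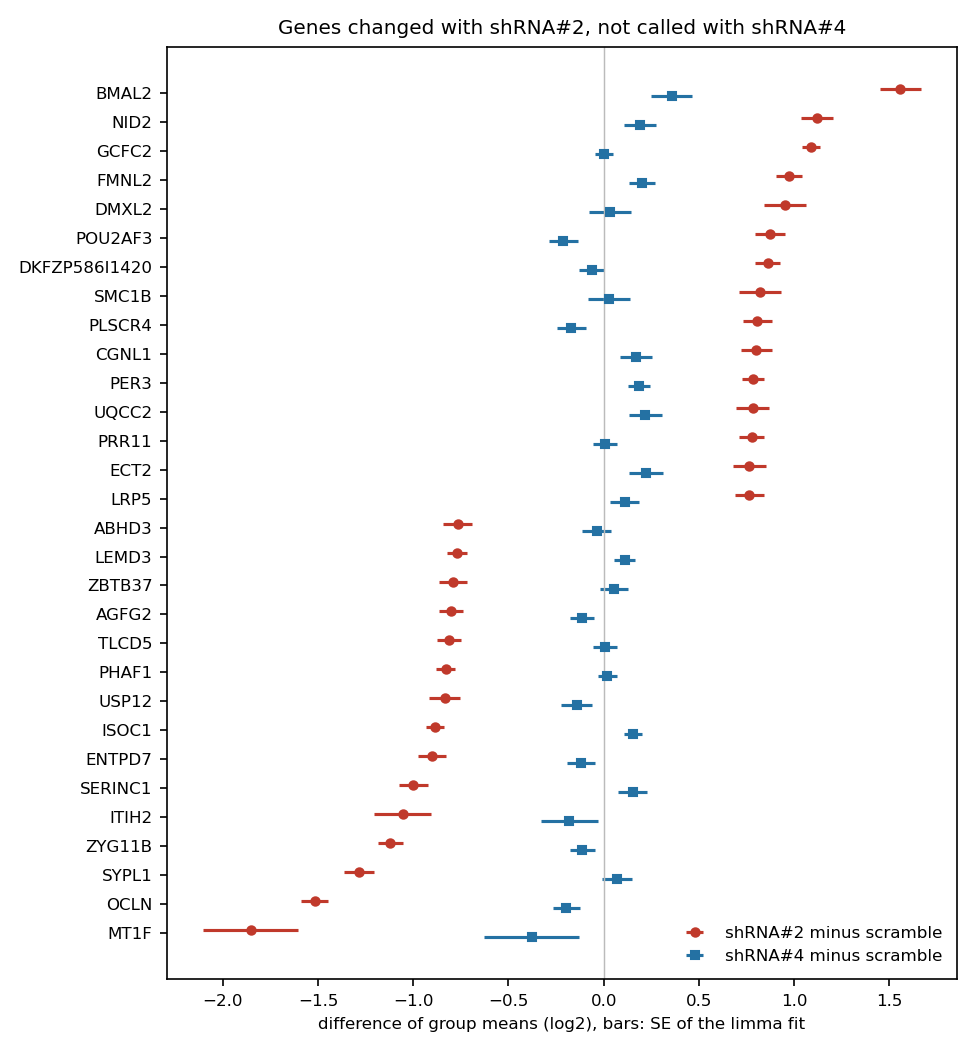
Difference of group means on the log2 scale with the standard error of the limma fit, shRNA#2 minus scramble (circles) and shRNA#4 minus scramble (squares), for the 15 largest rises and 15 largest falls among the 418 genes. These genes were selected for a small shRNA#4 change, so the closeness of the squares to 0 is a result of the rule, and BMAL2 (1.56) and MT1F (-1.85) are the extremes for shRNA#2.

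Of 20 epithelial junction genes 10 fell and 1 rose with shRNA#2, 55.0% against 21.6% of all genes. Their median was -0.17 (shRNA#4, 6 fell and 4 rose, median -0.095). Besides OCLN the falls with shRNA#2 included CLDN1, a claudin, at -1.08 ± 0.05 (adjusted p = 0.000298). MARVELD2 read 0.01 and -0.01 in scramble, -0.32 and -0.28 with shRNA#2 and 0.32 and 0.23 with shRNA#4. MARVELD2, tricellulin, changed by -0.30 ± 0.053 (adjusted p = 0.0106) with shRNA#2 and 0.27 ± 0.053 (adjusted p = 0.0123) with shRNA#4. The count was 7, 6 and 7 without scramble replicate 1, shRNA#2 replicate 1 and shRNA#2 replicate 2. Of 21 apolipoproteins and plasma proteins 17 fell and 0 rose, 81.0% against 21.6% of all genes. Their median was -1.06 (shRNA#4, 20 fell and 0 rose, median -1.07). APOA1 read 1.25 and 1.22 in scramble, -0.47 and -0.42 with shRNA#2 and -0.03 and 0.03 with shRNA#4. APOA1, of high-density lipoprotein, changed by -1.68 ± 0.052 (adjusted p = 0.000298) and -1.56 ± 0.067 (adjusted p = 0.000298) was found for APOB, the scaffold of chylomicrons. APOA2 read 0.07 and -0.04 in scramble, 0.04 and 0.12 with shRNA#2 and -1.21 and -1.09 with shRNA#4. APOA2 was not called with shRNA#2 (0.06 ± 0.069 (adjusted p = 0.63)) and lay 1.23 ± 0.069 (adjusted p = 0.00154) above shRNA#4. MTTP, which loads lipid onto APOB, changed by -1.26 ± 0.081 (adjusted p = 0.000605) and stood 0.65 above shRNA#4. Of 20 brush border genes 12 fell and 1 rose, 65.0% against 21.6% of all genes. Their median was -0.45 (shRNA#4, 14 fell and 0 rose, median -0.65). Of 13 fatty acid oxidation genes 7 fell and 2 rose, 69.2% against 21.6% of all genes (shRNA#4, 6 fell and 2 rose). With shRNA#2, CPT1A, the gate of mitochondrial import, was at -1.48 ± 0.16 (adjusted p = 0.0025) and ACSL1, a fatty acid activating enzyme, at 0.76 ± 0.11 (adjusted p = 0.00522). CPT1A was also called lower than with shRNA#4. The fatty acid count was 5 without shRNA#2 replicate 2. Of 13 goblet genes 3 fell and 1 rose, 30.8% against 21.6% of all genes. Fewer of them were called without scramble replicate 1, shRNA#2 replicate 1 or either shRNA#4 array. MARVELD2 was not called against scramble without scramble replicate 1 or shRNA#2 replicate 1 (highest adjusted p = 0.0689). CPT1A was not called against shRNA#4 without either scramble array, either shRNA#2 array or shRNA#4 replicate 2 (highest adjusted p = 0.173).

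Of 23 replication genes 13 rose and 1 fell with shRNA#2, 60.9% against 21.6% of all genes. Their median was 0.40 (shRNA#4, 17 rose and 0 fell, median 0.59). CCNE1 read -0.58 and -0.58 in scramble, 0.53 and 0.56 with shRNA#2 and 0.02 and -0.02 with shRNA#4. CCNE1, cyclin E1, rose by 1.13 ± 0.046 (adjusted p = 0.000298) and stood 0.54 ± 0.046 (adjusted p = 0.00264) above shRNA#4. TYMS read -0.01 and 0.01 in scramble, -0.41 and -0.63 with shRNA#2 and 0.20 and 0.16 with shRNA#4. TYMS, thymidylate synthase, was the gene that fell, with a change of -0.52 ± 0.079 (adjusted p = 0.00632), and differed by -0.71 from shRNA#4. Of 28 genes of mitosis 16 rose and 1 fell with shRNA#2, 60.7% against 21.6% of all genes, with a median of 0.39. With shRNA#4, 8 rose and 2 fell, 35.7% against 26.1% of all genes, with a median of 0.09. Against shRNA#4, 10 were higher and 0 lower, 35.7% against 15.3% of all genes, with a median of 0.23. ECT2 read -0.35 and -0.10 in scramble, 0.51 and 0.57 with shRNA#2 and 0.02 and -0.02 with shRNA#4. ECT2, an activator of cytokinesis, rose by 0.76 ± 0.087 (adjusted p = 0.0027). AURKB read -0.26 and -0.05 in scramble, 0.35 and 0.53 with shRNA#2 and -0.13 and 0.05 with shRNA#4. AURKB, of the chromosomal passenger complex, rose by 0.59 ± 0.10 (adjusted p = 0.011), and BUB1, a spindle checkpoint kinase, by 0.49 ± 0.10 (adjusted p = 0.02). The mitosis count against scramble was 11, 10 and 7 without scramble replicate 1, shRNA#2 replicate 1 and shRNA#2 replicate 2. Against shRNA#4 it was 1 and 3 without shRNA#2 replicate 1 and 2, and 3 without either shRNA#4 array, so this difference rests on each of those arrays. The replication count was 9 without scramble replicate 1 or shRNA#2 replicate 1. Of 20 crypt and Wnt genes 7 rose and 1 fell, 40.0% against 21.6% of all genes. CD44 read -0.76 and -0.76 in scramble, 0.57 and 1.0 with shRNA#2 and 0.00 and 0.00 with shRNA#4. CD44, a Wnt target and hyaluronan receptor, rose by 1.55 ± 0.13 (adjusted p = 0.00115) and exceeded shRNA#4 by 0.79, and LGR5, the receptor that marks crypt stem cells, rose by 1.36 ± 0.19 (adjusted p = 0.00523). ECT2 and AURKB were not called against shRNA#4 without either shRNA#2 array or either shRNA#4 array (highest adjusted p = 0.14), nor BUB1 without shRNA#2 replicate 2 or either shRNA#4 array (highest adjusted p = 0.104), nor CD44 without either shRNA#4 array (highest adjusted p = 0.0663). AURKB and BUB1 were not called against scramble without scramble replicate 1 or shRNA#2 replicate 2 (highest adjusted p = 0.0951).

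Of 16 cholesterol synthesis genes 4 rose and 1 fell with shRNA#2, 31.2% against 21.6% of all genes. Between the hairpins 0 were called. The count against scramble was lower without scramble replicate 1 or shRNA#2 replicate 1. Of 14 YAP targets 4 rose and 2 fell, 42.9% against 21.6% of all genes. ANKRD1 read -0.73 and -0.57 in scramble, -0.19 and 0.19 with shRNA#2 and 1.11 and 1.17 with shRNA#4. ANKRD1, a YAP target, rose by 0.65 ± 0.13 (adjusted p = 0.0163) and differed by -1.14 ± 0.13 (adjusted p = 0.00461) from shRNA#4. The YAP count was 3 without either scramble array or shRNA#2 replicate 1. Of 28 cytoplasmic ribosomal protein genes 6 rose and 0 fell, 21.4%, which is near the share of all genes, with 2 or 3 called when any scramble or shRNA#2 array was left out. Markers of other cell types were counted as well. Of 11 mesenchymal markers 1 was higher and 2 lower, 27.3%, and of 18 enteroendocrine markers 1 was higher, NTS (0.31), 5.56%. All genes gave 21.6%. The mesenchymal count of 3 was 0 without either scramble array or shRNA#2 replicate 2, and 1 without shRNA#2 replicate 1. Of 9 immune and endothelial markers 3 were lower, LAPTM5, LYZ and CD68, and 0 higher, 33.3% against 21.6% of all genes. CD68 read 1.72 and 1.83 in scramble, -0.29 and 0.09 with shRNA#2 and -0.64 and -0.09 with shRNA#4. CD68, a lysosomal protein of macrophages that other cells also make, changed by -1.88 ± 0.20 (adjusted p = 0.00219) and by -2.14 with shRNA#4. The 2 probe sets of LYZ gave -1.93 and -0.64. The part of these markers in the other results was not tested. ANKRD1 was not called against scramble without scramble replicate 1 (highest adjusted p = 0.0826), nor NTS without scramble replicate 1 or either shRNA#2 array (highest adjusted p = 0.0591), nor LAPTM5 without shRNA#2 replicate 1 (highest adjusted p = 0.0564).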

How the data were processed

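Total RNA of 6 Caco-2 samples, 2 with the scramble hairpin and 2 with either hairpin against FAM46A, was measured on single-channel Affymetrix arrays, with labelled DNA made from total RNA by the WT PLUS kit per the labels' protocols. The authors deposited log2 values for 48144 probe sets, relative to each probe set's median over the 6 arrays, as the values themselves show. The sources used here do not state software, summarisation, normalization or the base of the logarithm, which was taken as 2. Centring keeps differences between groups and removes levels, so no filter on dim probe sets could be run and signal over background was not analysed here.

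Probe sets were named through the platform table and RefSeq. Of all probe sets 16098 had 1 symbol, 32046 had 0 and 0 had several, 0 symbols were updated, and the 14884 genes include 11916 protein-coding ones. Probe sets of the 779 genes with several were averaged. All 6 arrays entered 1 limma 3.58.1 fit (R 4.3.3, lmFit and eBayes without trend, 3 residual and 3.09 prior degrees of freedom), with Benjamini-Hochberg adjustment over all genes and calls at 0.05. The median SE was 0.0657, and the number of arrays limits the precision.

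The members, 33 gene lists (19 of stress genes, 567 of 920 listed genes measured) and the rules were chosen with earlier results of these data known. Named genes were the 15 largest rises and falls among called genes whose arrays did not overlap, the 15 each way called against both other groups with a shRNA#4 change that was not called and smaller than the shRNA#2 change divided by 3, and in each list the members with the largest called changes (up to 6 against scramble and 4 against shRNA#4 in stress lists, 4 in others). Families of noncoding and olfactory receptor symbols were not named, and a gene the rule names is not reported here. APOA1, APOA2, APOB, ATF4, AURKB, BMAL1, BUB1, CRY1, DDIT3, HSF1, HSPA1A, JUN, MARVELD2, MT1X, MTTP, NFE2L2, PER2 and TYMS lie outside this rule and were chosen after their values were seen.

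In data simulated for 14884 genes, 200 of them changed by 0.5, 65.8% were recovered against scramble and 65.3% against shRNA#4 over 20 draws. Unchanged genes made up 5.63% and 5% of the calls. The simulated noise was independent between genes, and far fewer genes changed than were called in the data, so the recovery there may differ. Alternatives were quantile normalization, array centring, a replicate block, array weights, a robust prior, the compared arrays alone, all probe sets, stricter thresholds and leaving out each array. Python 3.11.15, pandas 2.3.3 and matplotlib 3.10.9 were used for lists, motifs and figures.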

Additional observations from a re-analysis of the deposited data

Results flagged for a closer look

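Among the genes tracked by name, 6 were called against scramble in opposite directions with the 2 hairpins. A call between the hairpins in the same limma fit was part of this rule, so it is no separate result. Many tracked genes had themselves been named for large called changes. As described above, the shRNA#2 calls of NCR3LG1, ATG3 and MARVELD2 against scramble ended when certain single arrays were left out. OLR1, a scavenger receptor, differed by -2.44 on the log2 scale, shRNA#2 minus shRNA#4. NCR3LG1, a ligand of natural killer cells, differed by -1.47. KLF6, an immediate early transcription factor, differed by -0.87, and PER2, a clock gene, by -0.80. ATG3, an autophagy enzyme, differed by -0.70, and MARVELD2, a junction protein, by -0.58. All 6 were below scramble with shRNA#2 and above it with shRNA#4. Over all genes 100 were called in opposite directions, 31 of them higher with shRNA#2.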

How the results depend on the processing

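Of 3220 genes called for shRNA#2 against scramble, leaving out 1 array left 1756 to 2982, an adjusted p under 0.01 left 1575 and a change of at least 1 on the log2 scale 221. For shRNA#2 against shRNA#4 (2272) these counts were 761 to 2166, 769 and 59, and for shRNA#4 against scramble (3884) they were 2677 to 3476, 2122 and 279. Fewer arrays and stricter thresholds pass fewer genes by construction. A lone array was assumed to vary like the other groups. Quantile normalization, array centring, array weights, a robust prior, the compared arrays alone and all probe sets kept these counts within 1.5 times. Of the 226 genes tracked by name, 198 were called against scramble, 140 of them in every fit that left out 1 array, and 126 against shRNA#4, 58 of them in every such fit. Quantile normalization, array centring, array weights, the robust prior, the compared arrays alone or the replicate block ended the call in 17 and 12 of them, and 0 called genes changed direction under any setting run. In 255 of 779 genes with several probe sets these lay on opposite sides of 0 for shRNA#2 against scramble. A filter on dim probe sets was not run.

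Arrays with the same replicate number deviated together weakly, with correlations of 0.18, 0.116 and 0.152 between groups over all probe sets, but with 2 numbers the pairing could not be established. With the replicate block 3598, 2637 and 4227 genes were called in the 3 comparisons.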

Other observations

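Circadian clock genes were listed after BMAL2 and PER3 had been seen among the largest changes, so no test of the list is given. Of 23 clock genes 14 were measured, and with shRNA#2 5 were higher and 1 lower than scramble in the limma fit. Over all genes 12.1% were higher and 9.54% lower. BMAL1 (0.52) and TIMELESS (0.46) were also called higher with shRNA#4, while the other rises, BMAL2, PER3 and RORA, were not. BMAL1, the partner of CLOCK, read -0.55 and -0.49 in scramble, 0.33 and 0.38 with shRNA#2 and 0.07 and -0.07 with shRNA#4. It was higher by 0.87 than scramble and by 0.36 than shRNA#4. PER3, a repressor of the oscillator, was higher by 0.78 and by 0.60. PER2, its relative, had the opposite order, with -0.46 against scramble and -0.80 against shRNA#4. CRY1, another repressor, was not called against scramble with shRNA#2 (0.29) but was called with shRNA#4 (0.81). It differed by -0.52 between the hairpins. Without shRNA#2 replicate 1 or shRNA#4 replicate 2, BMAL1 and CRY1 were not called against shRNA#4, nor was BMAL1 without shRNA#2 replicate 2 (highest adjusted p = 0.0913). The sources used here do not state at what time of day samples were taken.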
